A study of Drosophila melanogaster with 3 samples.

Results

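The 9 genes described here, of 13968 protein-coding genes, belong to the Toll and Imd immune pathways of the fruit fly: spz, GNBP1, GNBP2, GNBP3, pll, cact, Dif, imd and Rel, chosen by name. The measurement was chromatin immunoprecipitation with sequencing (ChIP-seq) of whole Drosophila melanogaster prepupae, 1 day of age, of a strain with a CG8119-eGFP transgene, a fusion of the uncharacterised protein CG8119 to green fluorescent protein, pulled down through the fluorescent tag. There was 1 group of 3 biological replicates, labelled as such with nothing said of separate cultures or broods, and no second condition, so no conditions were compared and no test was made. Whole animals mix fat body, blood cells, gut and all other tissues, so a weak peak and a peak in few cells cannot be told apart, and a peak near a gene does not show that the gene responds to the protein.

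Toll and Imd are the signalling pathways that switch on the humoral immune response, and Toll also patterns the embryo. In the Toll pathway, sensor proteins of microbial wall sugars lead to cleavage of the ligand Spätzle, the receptor Toll is activated, and the kinase Pelle brings about the loss of the inhibitor Cactus, which frees the NF-kappaB factor Dif. In the Imd pathway, receptors of bacterial peptidoglycan act through the adaptor Imd on Relish, another NF-kappaB factor. Both pathways lead to antimicrobial peptides, made mainly in the fat body.

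The authors' thresholded peak lists held 7279, 6769 and 4608 peaks in replicates 1, 2 and 3, and the number of reads behind them is unknown. The authors' signal values have no stated scale. A peak was assigned to a gene if its summit lay in the gene body or at most 3 kb from it, on build dm6. Summits at most 150 bp apart were joined into a locus, a locus is termed shared if each of the 3 replicates has a summit in it, and the strength of a peak is given as its percentile by signal within its own list.

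In all, 7 of the 9 genes had a shared locus in their window: imd, cact, Dif, GNBP1, GNBP2, GNBP3 and pll. Of all protein-coding genes 25.5% did. Among the 8027 coding genes with windows as long as those of the members, from 7531 to 25914 bp, the share was 27.1%. The genes spz and Rel had none. Within 500 bp of an annotated transcript start there was a shared locus at 6 of the 9 genes, all of the above without Dif, against 9.06% of protein-coding genes. Earlier results of these lists were known when the 9 genes were chosen, so these counts describe the genes and do not show that the pathways stand apart. Replicates 1, 2 and 3 had 14, 13 and 10 thresholded peaks in the windows (mean 12.3 ± 2.08, SD, n = 3), which formed 18 of the 9014 loci of the series. Of these loci 8 were shared, 3 had 2 replicates and 7 had 1. GNBP1 and GNBP2 have the same locus, so the 6 genes with a shared locus at a start have 5 such loci between them.

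The sequences around the centres of 5 shared loci are shown because the counts at starts and the strongest locus of Dif rest on them, and because all are rich in A and T. They are genomic DNA of the plus strand, read 5′ to 3′ from the RefSeq copy of the same build (Release 6), at most 100 bases to each side of the centre and stopped at the nearest annotated exon. Capitals mark the longest unbroken run of A and T in each. At pll a later run of the same length is left in lower case. The sequence at imd is not shown.
GNBP1 and GNBP2, chr3L:18675470-18675670: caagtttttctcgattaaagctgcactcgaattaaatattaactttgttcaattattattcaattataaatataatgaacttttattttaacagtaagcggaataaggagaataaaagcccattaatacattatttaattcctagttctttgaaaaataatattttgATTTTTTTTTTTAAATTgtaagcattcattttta
GNBP3, chr3L:8954750-8954950: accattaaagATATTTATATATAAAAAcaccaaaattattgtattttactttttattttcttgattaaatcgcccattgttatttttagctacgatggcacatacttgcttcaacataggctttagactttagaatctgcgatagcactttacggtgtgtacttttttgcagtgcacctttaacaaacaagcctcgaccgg
pll, chr3R:27253183-27253374: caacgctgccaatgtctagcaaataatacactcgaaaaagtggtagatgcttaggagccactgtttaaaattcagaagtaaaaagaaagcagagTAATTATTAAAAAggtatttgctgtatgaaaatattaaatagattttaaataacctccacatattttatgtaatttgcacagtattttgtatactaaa
cact, chr2L:16325677-16325877: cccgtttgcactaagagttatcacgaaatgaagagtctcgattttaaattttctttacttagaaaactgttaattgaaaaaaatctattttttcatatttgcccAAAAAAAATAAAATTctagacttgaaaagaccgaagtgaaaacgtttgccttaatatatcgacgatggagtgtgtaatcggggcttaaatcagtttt
Dif, strongest locus, chr2L:17430158-17430283: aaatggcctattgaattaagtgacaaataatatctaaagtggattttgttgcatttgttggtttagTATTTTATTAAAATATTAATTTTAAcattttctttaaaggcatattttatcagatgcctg

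Within 100 bp of the centre, GC content was 20.9% at GNBP1 and GNBP2, 25.4% at the strongest locus of Dif, 29.9% at imd, 30.35% at pll, 30.85% at cact and 32.8% at GNBP3, and 24.4% and 31.8% at the other shared loci of Dif. The median of the 8 was 30.1%. Over all 3746 shared loci the median was 32.8%, with quartiles of 28.9% and 37.3%, so each member locus lay at or below the median of all loci, and 3 lay below the lower quartile. Windows of the same width 500 bp to either side of all shared loci had a median of 42.8%, and windows centred 150 bp upstream of coding starts had 35.8%. At 7 of the 8 member loci both flanks had a higher GC content than the centre; at the Dif locus with 31.8% the flank on the lower-numbered side had 27.4%. The longest run of A and T was 25 bp at the strongest locus of Dif. It was 17 bp at GNBP1 and GNBP2 and also 17 bp at GNBP3, the locus with the highest GC content of the 8. The median over the 8 loci was 15 bp, against 13 bp over all shared loci, 9 bp in the flanks and 12 bp upstream of coding starts. Base composition was examined because words of A and T led a ranking of short words over all shared loci, so it was chosen after values were seen.

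**Figure D1:**
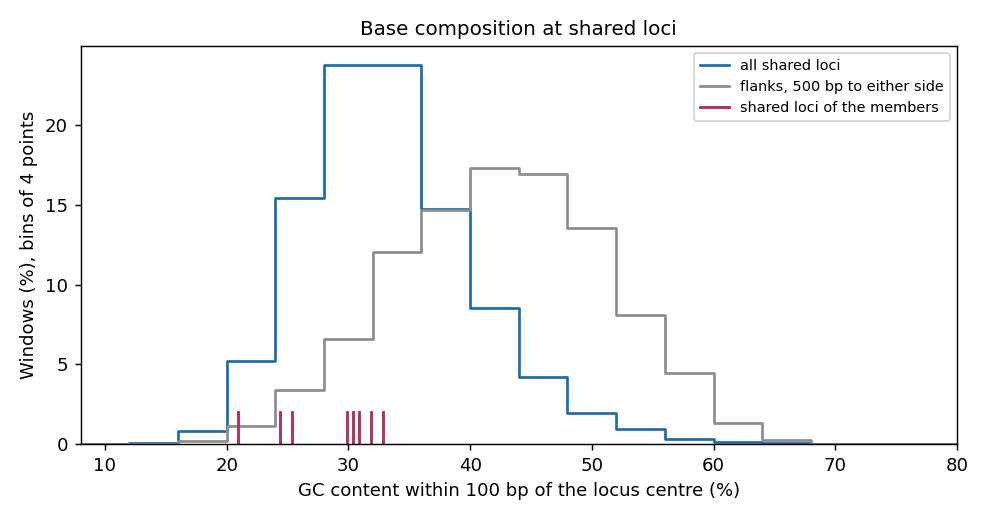
GC content within 100 bp of the centre, in percent, for all shared loci (blue line) and for windows 500 bp to either side (grey line), as the percent of windows in each bin of 4 percentage points. Red marks show the 8 shared loci of the immune genes, which lie between 20.9% and 32.8%, below the flanks' median of 42.8%.

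Of 8 sequence words, sought on both strands in the same windows, few were found. GGGANNNCC, a pattern of NF-kappaB sites, was in none of the 8 member loci and in 1.95% of all shared loci, 4.03% of flanks and 3.50% of the windows upstream of coding starts. CGATA was found at cact and GNBP3, 2 of 8, against 19.3% of all shared loci, and GAGAG at 1 locus of Dif, against 23.1%. The remaining words were in none of the 8. One is AGATAAG, the letters of a binding site of GATA factors, which 3.12% of all shared loci hold. The word TATCGATA, within which the shorter word above also occurs, was in 0.641% of shared loci. The E-box CACGTG was in 1.33% of them. The word GGTCACAC was in 0.534% of them. The word AGGTCA, a nuclear receptor site, was in 3.47% of them. A missing word says only that these letters are not in these windows.

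Of the ligand and the sensors, the sensors had the stronger peaks. GNBP1, a partner of PGRP-SA in sensing Gram-positive bacteria, and its relative GNBP2 lie head to head on 3L, with starts 387 bp apart (GNBP1, FBgn0040323, 18675800 to 18677876, plus strand; GNBP2, FBgn0040322, 18673474 to 18675413, minus strand). Their shared locus (18675442 to 18675728) lay in this gap, 157 bp upstream of GNBP2 and 230 bp upstream of GNBP1. Its signal in replicates 1, 2 and 3 was 321, 282 and 258, which is rank 540, 583 and 463. The 3 percentiles lay close together, at 92.6, 91.4 and 89.96 (mean 91.3 ± 1.31, SD, n = 3). By distance the locus belongs first to GNBP2, and no other thresholded peak was in either window.

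GNBP3, a sensor of fungal glucans (FBgn0040321, 3L, 8955021 to 8956551, plus strand), had a shared locus 171 bp upstream of its start (8954633 to 8955029). The signal was 192, 169 and 128, at percentiles of 82.1, 78.3 and 66.5 in replicates 1, 2 and 3 (mean 75.6 ± 8.11, SD, n = 3). All 3 replicates were thus weaker there than at GNBP1 and GNBP2. The centre lies between the start of GNBP3 and a start of orb2, which encodes an RNA-binding protein of long-term memory, 387 bp away. A second locus, 1566 bp upstream of GNBP3 and 221 bp upstream of a start that orb2 and CG43783 share, had a peak in replicate 1 (signal 104, percentile 56.4) and replicate 3 (63.3, percentile 16.9) and none in replicate 2.

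The ligand gene spz (FBgn0003495, 3R, 27064990 to 27070070, minus strand) had 1 peak in the 3 lists. It lay 386 bp upstream of the start in replicate 2, with a signal of 51.3 at the percentile of 6.98. The longer ranked lists of the authors, which also hold peaks that are not repeatable, had a summit 360 bp upstream in replicate 1 (signal 38.6, IDR score 630) and 305 bp upstream in replicate 3 (39.5, score 436), against a score of 881 for the peak of replicate 2; a score of 830 is the lower limit of the thresholded lists. The IDR, the irreproducible discovery rate, is low for a peak that is likely to recur, and a high score stands for a low rate. The authors' conservative pooled list had summits 339 bp upstream of spz (percentile 32.8) and in its 5′ UTR (23.1). The 5′ UTR summit, about 640 bp downstream of the start, was in the ranked lists of replicates 1, 2 and 3 with scores of 689, 228 and 666. Each replicate thus had a ranked summit within 500 bp upstream of spz, and 1 passed the authors' threshold.

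The adaptor gene imd (FBgn0013983, 2R, 18409796 to 18413599, minus strand) had the strongest locus of the 9 genes. The locus (18413671 to 18414000) lay 235 bp upstream of the longer transcript and 217 bp upstream of a start of Dp1, which encodes an RNA-binding protein with KH domains, in a gap of 452 bp. It is therefore closer to Dp1 than to imd, and Dp1 has further starts inside imd. The signal in replicates 1, 2 and 3 was 583, 612 and 432, at ranks 123, 70 and 122. Its percentiles of 98.3, 99.0 and 97.4 (mean 98.2 ± 0.810, SD, n = 3) were above those of every other member locus in each replicate. In the authors' pooled list its rank was 103 of 10370. Inside imd, replicate 2 had a weak peak 128 bp downstream of the inner start (signal 61.4, percentile 17.6) and replicate 3 one in an intron, 316 bp from a start of Dp1 and 1000 bp from one of imd (61.7, percentile 14.8), each absent from the thresholded lists of the other replicates.

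The kinase gene pll (FBgn0010441, 3R, 27251131 to 27253182, minus strand) had the weakest shared locus. It lay 92 bp upstream of pll and 156 bp upstream of TfIIA-L, which encodes the large subunit of a general transcription factor, in a gap of 248 bp (27253081 to 27253481). The signal was 156, 79.8 and 71.8, at percentiles of 75.35, 38.1 and 27.9 in replicates 1, 2 and 3 (mean 47.1 ± 25.0, SD, n = 3). Replicate 1 stood apart from the others here, and without it the mean was 33.0. Among peaks above the median signal of each list, pll had no shared locus, the 1 member of the 7 to lose it.

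The gene of the inhibitor cact (FBgn0000250, 2L, 16313036 to 16326207, minus strand) had a shared locus 152 bp upstream of an inner start and in an intron of its longer transcripts (16325597 to 16325956). The next gene with a start, CG4278, was 1292 bp away, so cact was the 1 gene of the 6 with no other coding start within 500 bp of its locus. The signal was 257, 197 and 169, at percentiles of 88.9, 83.5 and 78.9 (mean 83.8 ± 5.04, SD, n = 3), with summits within 7 bp of each other. The median spread of summits over all shared loci was 32 bp. In the long intron, 10089 bp downstream of the nearest start of cact, replicates 1 and 2 had a peak at percentiles of 13.6 and 7.96, and replicate 3 had none. This locus is closer to a start of fzy, at 4375 bp.

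Of the NF-kappaB genes, Dif had many peaks and Rel had none in the thresholded lists. Dif (FBgn0011274, 2L, 17413248 to 17433161, minus strand) had 7, 5 and 3 peaks in the lists of replicates 1, 2 and 3, which formed 8 loci. Of the loci 3 were shared, and these lay in the intron between its outer and inner starts. Of all protein-coding genes 3.12% had 3 or more shared loci in their window, and among the 1025 coding genes at least as long as Dif 25.9% did.

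The strongest locus of Dif (17430049 to 17430383) was 1984 bp upstream of the inner start and 477 bp downstream of the start of the noncoding gene lncRNA:CR44409, which is closer. Its signal was 292, 369 and 260, at percentiles of 91.1, 95.1 and 90.2 (mean 92.2 ± 2.60, SD, n = 3), a range that overlaps that of GNBP1 and GNBP2. The next, 1724 bp downstream of the outer start (17431238 to 17431644), had 191, 146 and 97.7, at percentiles of 82.0, 72.7 and 50.4. The third lay 2348 bp downstream of the outer start (17430584 to 17430943) and closer to the start of lncRNA:CR44409, at 1107 bp, with 87.7, 135 and 144 at percentiles of 45.2, 69.4 and 72.3. The locus at 2348 bp was lowest in replicate 1 and that at 1724 bp in replicate 3, so their order was not the same in every replicate. Among the thresholded lists, replicate 1 alone had peaks at the inner start itself, 84 bp downstream (percentile 41.3) and 119 bp upstream (0.790). The authors' pooled list also had a summit there, 52 bp downstream, at percentile 57.9. Replicate 2 alone had a summit 2174 bp upstream of the inner start (3.97), closer to the start of lncRNA:CR44409, at 667 bp. The peak of this summit (17430064 to 17430383) lies within the bounds of the strongest locus. It counts as a separate locus because its summit is more than 150 bp from the others. In a further intron, 6571 bp downstream of the inner start, replicates 1 and 2 had a peak at percentiles of 48.8 and 44.1. The peak 2709 bp beyond the far end of Dif, the farthest from a gene body among those counted, was found in replicate 1 only, 102 bp upstream of CG15141. The nearest locus left out by the limit of 3 kb was 4686 bp from pll, with a peak in all 3 replicates and a mean percentile of 74.0.

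Rel (FBgn0014018, 3R, 9044183 to 9047977, minus strand), which encodes the NF-kappaB factor of the Imd pathway, was the 1 member with no thresholded peak in any replicate. Of protein-coding genes 45.0% had a locus of at least 1 replicate in their window, and 8 of the 9 members did. The ranked summit with the highest score lay 903 bp upstream of a start of Rel in replicate 1 (signal 35.5, score 746, with a nearer one 232 bp upstream at score 557), 161 bp upstream in replicate 2 (49.9, score 796) and 384 bp upstream in replicate 3 (53.6, score 870). The last is past 830 but has no entry in the thresholded list, and the pooled list has no peak in the window. The nearest locus of any replicate lay 10224 bp from the gene. Without read counts it cannot be said how weak a peak these lists would show.

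**Figure D2:**
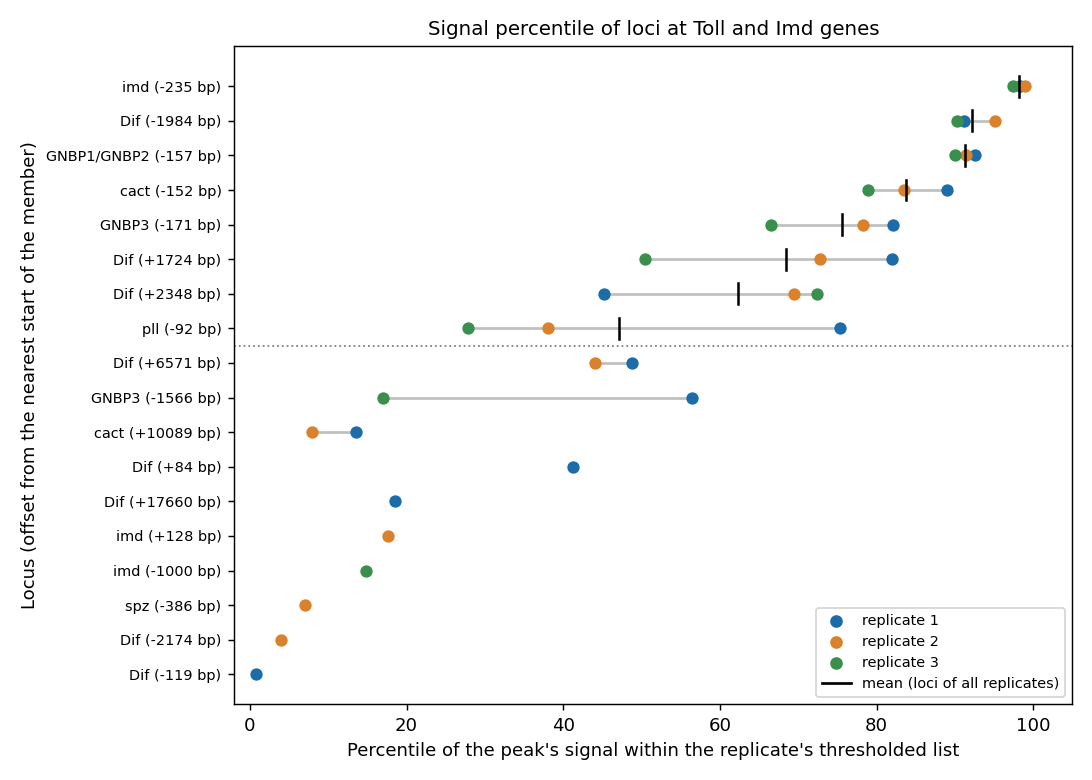
Percentile of the peak signal within each replicate's thresholded list (x axis) for the 18 loci at the immune genes (y axis, by offset in bp from the nearest start of the member). Points are replicates, black bars are the means of the 8 shared loci above the dotted line, and imd has the highest points (97.4 to 99.0) and pll a wide spread (27.9 to 75.35).

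The strongest shared locus per gene had a median mean percentile of 91.3 over the 7 members that have one, beside 77.4 over all coding genes that have one. The locus that GNBP1 and GNBP2 have in common enters once for each of them, and its own mean percentile is this 91.3. Both medians are over genes, not over distinct loci. The members were named with earlier results of these lists known, and the other genes were not matched to them for window length. The comparison is therefore a description of named genes and was not tested. Of the 8 shared loci 6 were above the median of all 3746 shared loci, which was 66.6. By mean percentile the order of the shared loci was imd, the strongest of Dif, GNBP1 with GNBP2, cact, GNBP3, the other 2 of Dif, and pll. The replicates of imd did not overlap those of any other locus, nor did those of cact overlap those of GNBP1 with GNBP2, while those of cact and GNBP3 overlapped, as did those of the last 4. The 10 loci that were not found in every replicate had mean percentiles from 0.790 to 46.4; the median over all such loci of the genome was 22.6.

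Other than at cact, the loci at members' starts lay in short gaps between genes transcribed away from each other. Of the 6 members with a locus at a start, 5 had a start of another coding gene within 500 bp of the locus, cact being the exception, against 42.4% of the 1266 protein-coding genes with a shared locus at a start. GNBP1 and GNBP2 are both among the 5 through the same locus, each with the start of the other beside it. Both shares count genes, not loci. For 2 of the 6, imd and GNBP1, the start of the other gene was the nearer one, against 22.0% of those 1266 genes. The gaps were 248 bp at pll, 387 bp at GNBP1 and GNBP2, 452 bp at imd and 558 bp at GNBP3. ChIP-seq fragments do not show to which of the genes facing each other such a locus relates.

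**Figure D3:**
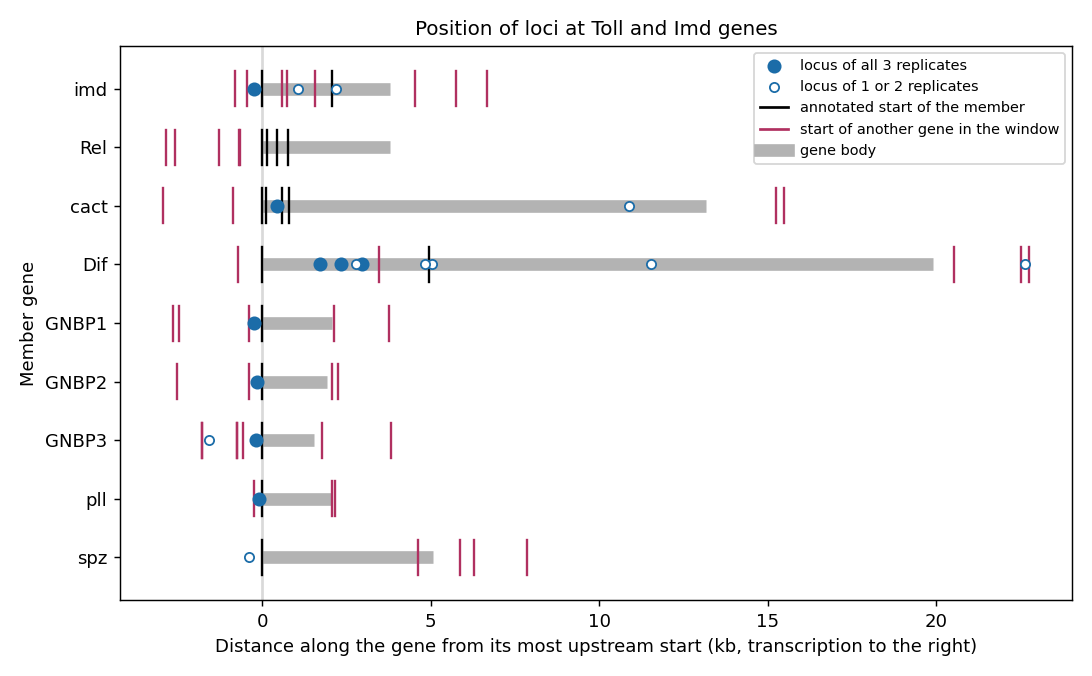
Position of each locus along the 9 genes, in kb from the most upstream start with transcription drawn to the right. Filled points are loci of all 3 replicates, open points loci of 1 or 2, grey bars gene bodies, black ticks starts of the gene and red ticks starts of other genes; the filled points lie just upstream of the first start at imd, GNBP1, GNBP2, GNBP3 and pll and inside the gene at cact and Dif.

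The wider pathway was examined with a list of 84 genes in 5 classes, chosen like the members with earlier results known, and 24 of them (28.6%) had a shared locus in their window, near the 25.5% of all protein-coding genes, and 11 (13.1%) had one at a start, against 9.06%. Outside the 9 members, 17 of 75 (22.7%) did in the window and 5 of 75 (6.67%) at a start, both somewhat below those shares, with no test made. Of 10 genes of the Toll core, 7 had a shared locus in the window and 3 at a start, and of 18 of the Imd core 10 did, 5 of them at a start. Of 12 upstream Toll genes 4 did, 3 of them the GNBP members, each at a start. Without the 9 members, 4 of 7 genes of the Toll core had a shared locus in the window and 1 at a start. In the Imd core these counts were 9 and 4 of 16, and in the upstream Toll genes 1 and 0 of 8. None of 11 receptors and modulators of Imd had a shared locus in the window, although 4 had a locus of at least 1 replicate. Of 33 effector genes 3 had a shared locus, none at a start. The classes also differed in gene length, with a median of 13354 bp in the Toll core, 3693 bp in the Imd core, 1916 bp in the upstream Toll genes, 1881 bp in the receptors, 449 bp in the effectors and 2164 bp over all coding genes. The core classes were the longest and had the highest shares in the window, 70.0% and 55.6%. The share there was 33.3% in the upstream Toll genes, 0% in the receptors and 9.09% in the effectors. With the members counted in their classes, the shares at starts fell or stayed level as median length fell. They were 30.0% in the Toll core, 27.8% in the Imd core and 25.0% in the upstream Toll genes. In the receptors and the effectors they were 0%. Without the members, the shares at starts were 14.3% in the Toll core, 25.0% in the Imd core and 0% in the upstream Toll genes. The order by length thus did not hold without the members. The part of length in the counts was not tested. Some genes of the list, such as CecA1 and CecA2, are close paralogs, and how reads were assigned between copies was not examined here.

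In the Toll core, Gprk2, which encodes a G protein-coupled receptor kinase, had the highest mean percentile, 99.85 ± 0.0920 (SD, n = 3), at the stronger of 2 shared loci, 83 bp from the start of its neighbour PNPase and 588 bp from its own. Pli, which encodes Pellino, a partner of Pelle, had 4 shared loci, the strongest in an intron at 96.0 ± 0.477. The receptor gene Tl had 2, with 77.7 ± 7.86 at the stronger, 726 bp downstream of a start, and dl, the gene of the NF-kappaB factor of embryonic patterning, had 1 in its 5′ UTR at 65.8 ± 8.85. In the Imd core, dnr1, whose product restrains the caspase Dredd, had 3 shared loci, the strongest at 99.0 ± 0.805 in an intron, 22983 bp from a start of dnr1 and 7674 bp from one of CG11362. The gene eff, which encodes a ubiquitin-conjugating enzyme, had 2, the stronger in an intron at 96.0 ± 1.58. Tab2, the partner of the kinase Tak1, had 2, with 94.5 ± 1.67 at the stronger, in an intron, and POSH, a ubiquitin ligase gene, had 90.9 ± 2.54 at 107 bp upstream of its start. The locus counted for Diap2, an inhibitor of apoptosis in the pathway (91.8 ± 3.49), lies downstream of the gene and closer to bdg. Upstream of Toll, the sensor gene PGRP-SA had a locus 1211 bp upstream (74.4 ± 12.3). Among effectors, the stronger of 2 shared loci of the defensin gene Def (94.8 ± 0.569) is 310 bp upstream of magu and 1940 bp upstream of Def, the 1 locus of Drsl6 (81.2 ± 3.14) is nearer to kst, and edin had 2, the stronger 2157 bp from its start and downstream of the gene (76.9 ± 2.24).

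**Figure D4:**
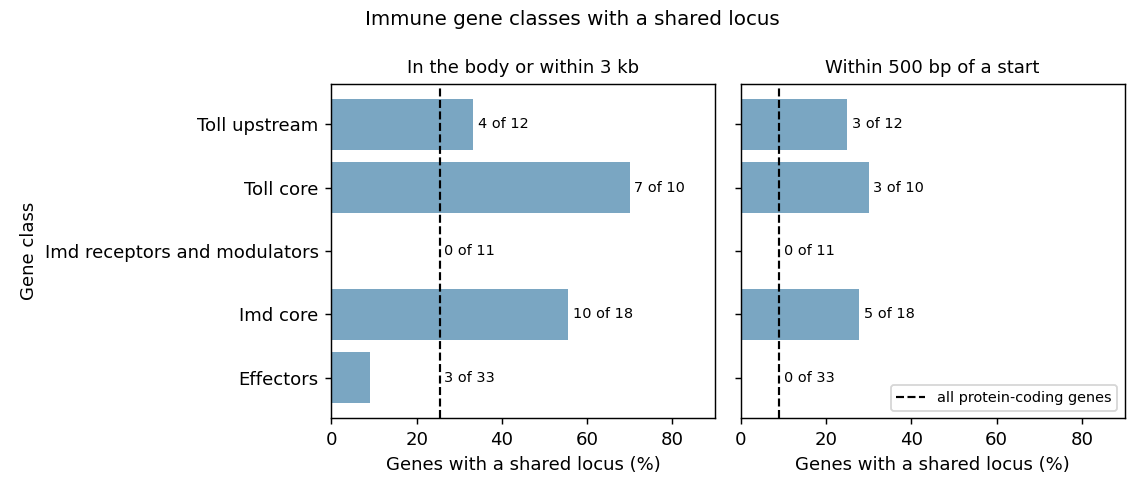
Percent of the genes of each immune class with a shared locus in the body or within 3 kb (left) or within 500 bp of a start (right), with counts beside the bars. The members are included in their classes. Dashed lines are all protein-coding genes, at 25.5% and 9.06%; the core classes reach 70.0% and 55.6% on the left, the effectors 9.09%.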

How the data were processed

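ChIP-seq peak lists of 3 biological replicates of 1 group were analysed. Per the deposited README texts, each replicate has a ranked and a thresholded list on build dm6. Which aligner and caller made them is not stated in the sources used here. The authors deposited for each peak a signal value, a scaled IDR score and a summit offset. The lowest score in each thresholded list was 830, an IDR of 0.01. Replicate lists were made separately; the pooled list served for ranks and as an alternative. No control samples were analysed here.

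Summits (1-based), gene models of Ensembl release 115 without transposable elements and the chromosome arms were used; the bounds of all 9 members matched RefSeq. A locus centre is the median of its summits, and a locus takes the strongest peak of each replicate. Percentiles count the peaks of the same list. Joining and distances were tested on simulated data. The SD of a signal can also hold differences of scale between lists. The members, the wider list and the words were chosen with earlier results of these data known. GC content and runs of A and T were added after an exploratory ranking of short words, and the background shares for 3 or more loci, for long genes, for window length and for neighbouring starts were added after the members' values were seen. Named genes are the members, the gene with the nearest start, and of each class up to 6 genes with a shared locus, by mean percentile. Alternatives changed the replicates, the join distance, the lists, the 3 kb window and the 500 bp limit. Values were computed in Python 3.11.15 with SciPy 1.17.1, and a changed share was judged by its 95% binomial interval (counting error only). Figures were drawn with matplotlib 3.10.9.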

Additional observations from a re-analysis of the deposited data

How the results depend on the processing

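The 7 members with a shared locus in the window stayed at 7 in 8 of 10 alternatives, fell to 6 with peaks above each list's median signal alone, where pll was lost, and to 2 (cact and Dif) with the gene body alone. At starts, 6 stayed 6 in 7 of 9 alternatives, with 5 above the median signal and 4 at 200 bp, where imd and GNBP1 were lost. The count of 8 shared loci became 4 with the gene body alone, 6 above the median signal and 9 with 5 kb. It was 9 without replicate 2 and 10 without replicate 3. The pooled list of 10370 peaks had 21 peaks in the windows. The mean number of thresholded peaks became 7.33 above the median signal and 7 in the gene body. The share of protein-coding genes with a shared locus in the window was 17.7% above the median signal, 22.7% with a join distance of 50 bp, 9.58% in the body, 17.4% with 1 kb and 32.8% with 5 kb, and 26.6% to 32.6% without 1 replicate. At starts it was 5.95% above the median signal, 7.70% with a join distance of 50 bp, 5.05% (200 bp), 11.6% (1000 bp), and 9.57% to 12.6% without 1 replicate. Without 1 replicate the mean percentile of pll ranged from 33.0 to 56.7, around 47.1 with all. The percentiles of all 8 shared loci were higher within the ranked lists. Those lists are much longer, with many weaker peaks added, so this rise is no check of the loci. Unknown depth limits statements on absent peaks. No paired analysis was possible because there is 1 group.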
